A study of Mus musculus with 6 samples.

Results

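The 35 genes described here encode pyruvate dehydrogenase, pyruvate carboxylase and enzymes of the citrate cycle (18 genes) and enzymes that break down the branched-chain amino acids leucine, isoleucine and valine (17 genes). They were chosen by symbol from the 55011 genes counted. All 35 were in the table, and all 35 were among the 13859 genes that passed the filter on low counts. RNA came from whole visceral adipose tissue of C57BL/6 males at 30 weeks of age, labelled as kept on LFD (low-fat diet) for 14 weeks and on HFD (high-fat diet) for the next 16, and collected at zeitgeber time 0 h (lights on). All mice carried Foxp3.Cre-YFP, a Cre recombinase expressed with Foxp3, the lineage factor of regulatory T cells. They were labelled bmal1WT in 3 libraries and bmal1KO in 3, called Bmal1WT and Bmal1KO below. Bmal1, listed as Arntl, is a transcription factor of the circadian clock. Since no label ties a library to its own animal, p-values reflect variation among these libraries only. The fat cell itself is not a cell in which this Cre is expected to act.

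In the citrate cycle, acetyl-CoA made by pyruvate dehydrogenase or from fat and amino acids is joined to oxaloacetate and oxidised step by step in the mitochondrion. Branched-chain amino acids lose their amino group in a transaminase step, and the resulting keto acids are then committed to oxidation by a dehydrogenase complex that a kinase switches off and a phosphatase switches on. The carbon enters the citrate cycle as acetyl-CoA from leucine and isoleucine and as succinyl-CoA from valine and isoleucine. Fat cells use much of this carbon, partly for making fatty acids.

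Arntl counts were 273, 242 and 373 in the Bmal1WT libraries and 324, 289 and 314 in the Bmal1KO ones. The log2 fold change (log2 FC, Bmal1KO over Bmal1WT) was 0.27 with SE 0.22 and adjusted p = 0.719 by edgeR, which in whole tissue says little about a deletion limited to Foxp3-expressing cells. Total counts per library ran from 6514620 to 9529198. Bmal1KO replicate 1 was the shallowest library and yet had counts on 30019 genes, against 19009 to 20145 in the other 5. Bmal1WT replicate 1 held 3273 counts of 16 epididymis and testis genes, against 4 to 26 in the others. Defining markers of fat cells were abundant: all 23 were tested, none was at 0, and they summed to 47077 to 58023 CPM (counts relative to the scaled library size) in Bmal1WT and to 31889 to 56036 CPM in Bmal1KO. The members' log2 fold changes that moved by over 1.5 times without Bmal1KO replicate 1 are therefore also given without it. So are the medians of both pathways and of each role group whose median is given. For all members together the mean in each Bmal1KO library is given instead.

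In Bmal1KO fat the genes of both pathways tended to be lower, those of leucine breakdown by the most, but none passed the test over all genes. This tendency came mainly from Bmal1KO replicates 2 and 3. The mean over the 35 members, relative to Bmal1WT, was 0.070, -0.34 and -0.46 in Bmal1KO replicates 1 to 3. In the Bmal1WT libraries it ran from -0.088 to 0.077. Of the 35 members 30 had a lower mean in Bmal1KO and 5 a higher one, with a median log2 FC of -0.24, where the median of all genes tested was 0.018 and 48.0% of them were lower. In RNA from whole tissue, fewer fat cells and less of these RNAs per fat cell cannot be told apart. The adjusted p was below 0.05 for 0 members and for 0% of all genes by edgeR's quasi-likelihood test (smallest adjusted p over all genes 0.265). At an unadjusted p under 0.05 edgeR listed 1290 genes, or 9.31%. DESeq2 called 60 genes and limma voom 0, and neither called a member. Lower at an unadjusted p under 0.05 were 7 members (Idh3a, Sucla2, Suclg1, Bckdha, Auh, Mccc1 and Mccc2), against 4.26% of all genes, and higher were 0 members, against 5.05%. The lower members numbered 2 on library size alone, against 2.24% of all genes, and 11 by limma voom, against 6.17%. In 11 members every Bmal1KO library lay under every Bmal1WT library, a pattern met by 7.85% of all genes, and in 1 member, Ppm1k, every Bmal1KO library lay above, as in 7.83% of all genes.

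**Figure D1:**
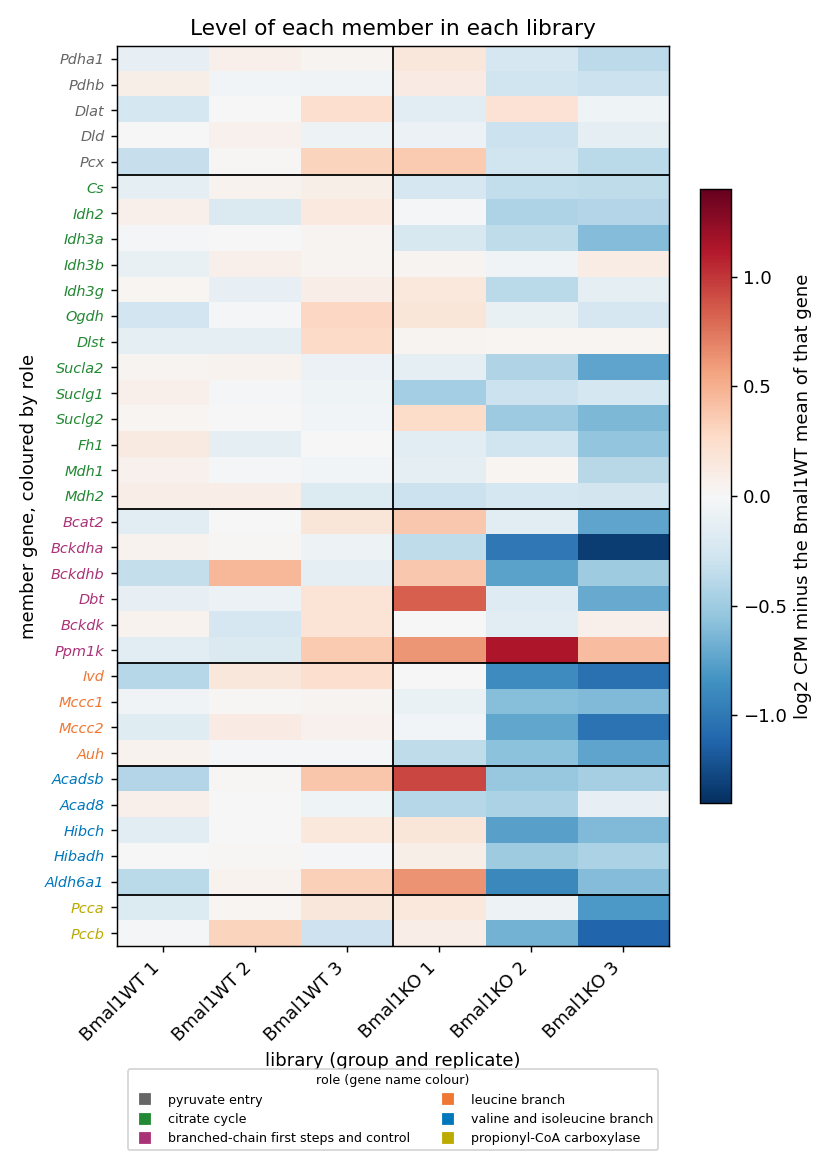
Level of each of the 35 members (rows, in blocks by role) in each of the 6 libraries (columns), as log2 CPM minus the gene's Bmal1WT mean. Blue cells in the columns of Bmal1KO replicates 2 and 3 mark levels under the Bmal1WT mean, and Bmal1KO replicate 1 is red for Dbt, Acadsb and Aldh6a1.

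Each of the 5 genes of pyruvate entry had a lower Bmal1KO mean, with log2 FCs between -0.17 and -0.0100. None of them had an unadjusted p under 0.05, against 9.31% of all genes. Their median was -0.13, and it was -0.29 without Bmal1KO replicate 1. Pdha1 and Pdhb encode the subunits of pyruvate dehydrogenase that decarboxylate pyruvate. Pdha1 was at 178, 202 and 198 CPM in Bmal1WT replicates 1 to 3 and at 214, 163 and 150 CPM in Bmal1KO replicates 1 to 3 (log2 FC -0.13, SE 0.17, adjusted p = 0.828). Pdhb was at 234, 216 and 214 CPM and at 240, 182 and 180 CPM (-0.14, SE 0.16, adjusted p = 0.808). For both genes Bmal1KO replicate 1 was the highest of the 6 libraries and replicates 2 and 3 were the lowest. Without replicate 1 the log2 FC was -0.30 for Pdha1 and -0.29 for Pdhb.

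Dld, the lipoamide dehydrogenase shared by the pyruvate, oxoglutarate and branched-chain keto acid complexes, was at 194, 201 and 184 CPM in Bmal1WT, against 183, 156 and 177 CPM in Bmal1KO (log2 FC -0.17, SE 0.15, adjusted p = 0.745). Its groups did not overlap, though Bmal1KO replicate 1 and Bmal1WT replicate 3 nearly met. Pcx, pyruvate carboxylase, which makes oxaloacetate from pyruvate, ran from 422 to 655 CPM in Bmal1WT and was at 683, 435 and 409 CPM in Bmal1KO (-0.080, SE 0.23, adjusted p = 0.935). Its log2 FC was -0.35 without Bmal1KO replicate 1 and above 0 on library size alone (0.0105). Dlat, the acetyl-transferring core of pyruvate dehydrogenase, was at 105 ± 17.5 CPM in Bmal1WT and 104 ± 13.7 CPM in Bmal1KO (SD, n = 3), with a log2 FC of -0.0100 (SE 0.18) that became 0.061 without Bmal1KO replicate 1.

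Within the citrate cycle proper 11 of 13 genes had a lower Bmal1KO mean (median log2 FC -0.27, and -0.28 without Bmal1KO replicate 1). In 6 of the 13 every Bmal1KO library lay under every Bmal1WT library, against 7.85% of all genes: Cs, Idh3a, Sucla2, Suclg1, Fh1 and Mdh2. Idh3a (ENSMUSG00000032279.11, mm10 chr9:54586334-54604661) encodes the catalytic subunit of the NAD-dependent isocitrate dehydrogenase. It was at 460, 467 and 480 CPM in Bmal1WT, against 400, 365 and 307 CPM in Bmal1KO, a log2 FC of -0.39 (SE 0.16, adjusted p = 0.494). The other subunits of that enzyme, Idh3b and Idh3g, had log2 FCs of 0.029 (SE 0.15) and -0.11 (SE 0.17), with overlapping groups. The difference between subunits was not tested.

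Succinyl-CoA synthetase pairs the shared subunit Suclg1 with Sucla2 to form ATP or with Suclg2 to form GTP. Sucla2 was at 333, 336 and 306 CPM in Bmal1WT, against 295, 242 and 195 CPM in Bmal1KO (log2 FC -0.41, SE 0.18, adjusted p = 0.512). Suclg1 was at 224, 211 and 204 CPM and at 154, 172 and 179 CPM (-0.34, SE 0.15, adjusted p = 0.514). Unlike most members, Suclg1 had its lowest value in Bmal1KO replicate 1. Suclg2 was at 40.9 ± 0.835 CPM (SD, n = 3) and 34.6 ± 12.4 CPM, and its groups overlapped (log2 FC -0.24, and -0.57 without Bmal1KO replicate 1).

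Citrate synthase, Cs, which opens the cycle, was at 396, 452 and 461 CPM in Bmal1WT, against 370, 343 and 341 CPM in Bmal1KO (log2 FC -0.31, SE 0.15, adjusted p = 0.553). Fumarase, Fh1, was at 166 ± 14.7 CPM (SD, n = 3) and 133 ± 18.7 CPM, and Mdh2, the malate dehydrogenase of the mitochondrion, at 572 ± 62.0 and 473 ± 9.32 CPM. Mdh1, the malate dehydrogenase of the cytosol, was at 746 ± 25.7 and 669 ± 95.1 CPM and overlapped. Idh2, the NADP-dependent isocitrate dehydrogenase of the mitochondrion, had a log2 FC of -0.29 (SE 0.17). Without Bmal1KO replicate 1 it was -0.43, and those of Idh3g and Ogdh were -0.26 and -0.19. The oxoglutarate dehydrogenase genes Ogdh and Dlst differed by less than their SE (-0.062, SE 0.19, and 0.018, SE 0.16).

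The branched-chain genes held both the lowest and the highest fold change of the 35 members. Of the 17, 14 had a lower Bmal1KO mean and 3 a higher one (Ppm1k, Dbt and Acadsb), with a median log2 FC of -0.26 and a range from -0.85 to 0.76. The citrate cycle and pyruvate genes kept within -0.41 and 0.029. Bckdha and Bckdhb encode the decarboxylating subunits of the branched-chain keto acid dehydrogenase, and Dbt its core. Bckdha (ENSMUSG00000060376.7, mm10 chr7:25629946-25658981) was at 43.9, 42.8 and 40.2 CPM in Bmal1WT, against 32.9, 20.9 and 16.8 CPM in Bmal1KO, a log2 FC of -0.85 (SE 0.25, adjusted p = 0.414). The Bmal1WT libraries lay close together, and all Bmal1KO libraries lay under them. Of the 1899 exon bases of Bckdha, 1171 overlap exons of B3gnt8 on the opposite strand, which had 81 to 120 counts in Bmal1WT and 63 to 88 in Bmal1KO. Reads of these genes cannot be told apart without strand.

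The other subunits of the complex had overlapping groups. Bckdhb was at 23.0, 40.2 and 26.5 CPM in Bmal1WT, against 37.9, 17.2 and 20.5 CPM in Bmal1KO (log2 FC -0.25, SE 0.32, adjusted p = 0.829). Dbt was at 36.2 ± 4.45 CPM (SD, n = 3) and 39.5 ± 22.2 CPM, at 64.5, 31.8 and 22.1 CPM in Bmal1KO replicates 1 to 3. For both, as for Bckdha, Bmal1KO replicate 1 stood above Bmal1KO replicates 2 and 3. Without it the log2 FC was -0.67 for Bckdhb and went from 0.12 to -0.43 for Dbt. The difference between these subunits and Bckdha was not tested.

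Bckdk, the kinase that switches the complex off, was level at 118 ± 17.6 CPM in Bmal1WT and 116 ± 9.61 CPM in Bmal1KO (SD, n = 3), a difference within the SD of either group (log2 FC -0.036, and -0.055 without Bmal1KO replicate 1). Ppm1k, the phosphatase that switches it on, was the 1 member higher in every Bmal1KO library, at 7.22, 10.4 and 6.33 CPM against 4.11, 3.98 and 6.03 CPM (log2 FC 0.76, SE 0.39, adjusted p = 0.565). It was also the lowest of the 35 members in level per length (1.05 CPM per kb of exon, against 276 for Mdh1, the highest). Bcat2, the mitochondrial transaminase of the opening step, was at 123, 137 and 155 CPM in Bmal1WT, against 179, 124 and 82.3 CPM in Bmal1KO (-0.11, SE 0.25, adjusted p = 0.914). Its groups overlapped, and its log2 FC was -0.43 without Bmal1KO replicate 1.

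**Figure D2:**
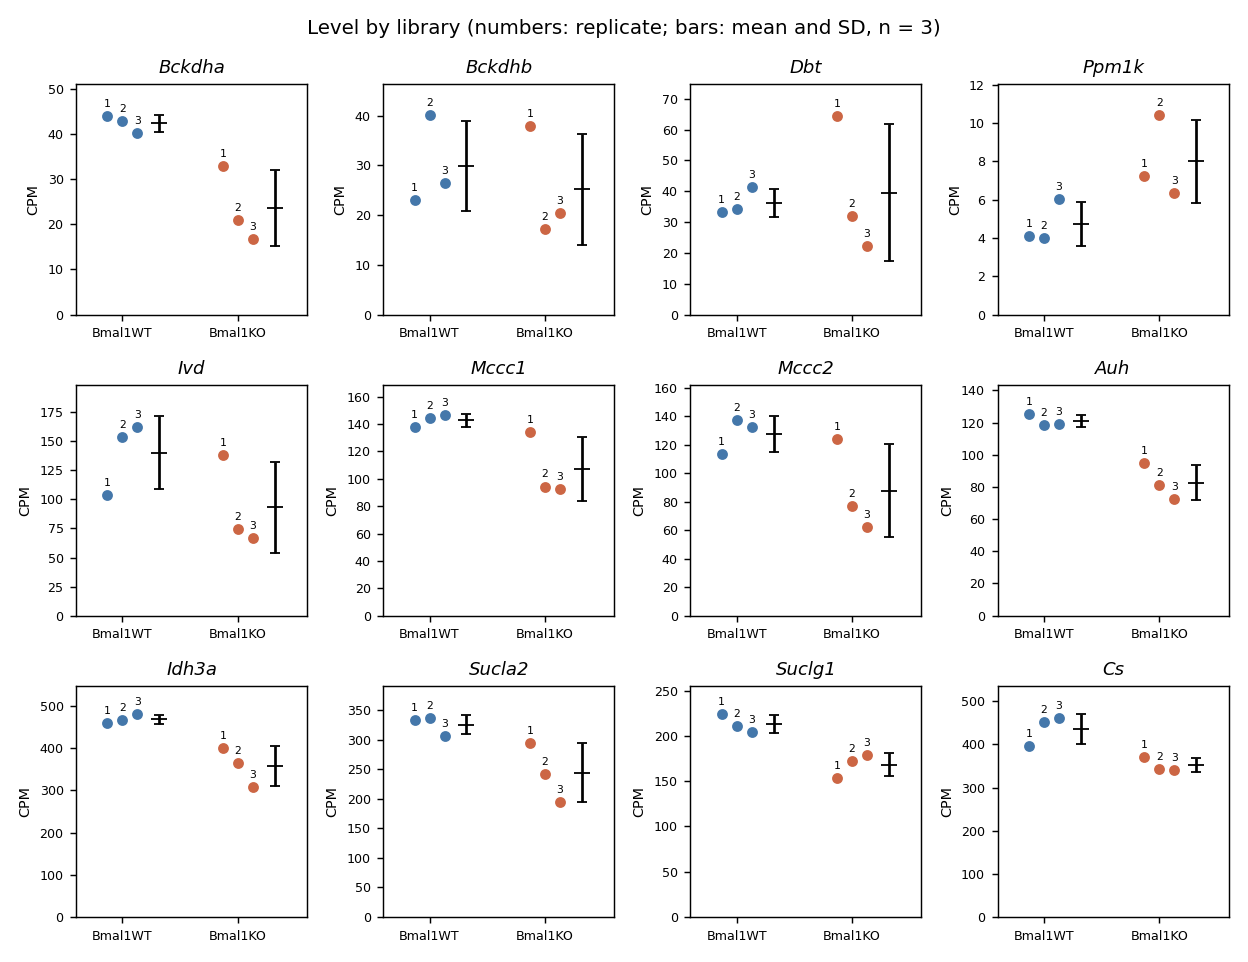
CPM of 12 members in each library, numbered by replicate, with the mean and SD (n = 3) beside the points. Every axis starts at 0. Bckdha, Mccc1, Auh, Idh3a, Sucla2, Suclg1 and Cs are lower in each Bmal1KO library than in any Bmal1WT library, Ppm1k is higher in each, and Bckdhb, Dbt, Ivd and Mccc2 overlap through Bmal1KO replicate 1.

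The 4 genes of the leucine branch had the lowest median of the 6 role groups, -0.55 on the log2 scale (-0.77 without Bmal1KO replicate 1), and 3 of the 4 were lower at an unadjusted p under 0.05, against 4.26% of all genes. Ivd, isovaleryl-CoA dehydrogenase, acts after the keto acid step, the subunits Mccc1 and Mccc2 of methylcrotonyl-CoA carboxylase follow, and Auh hydrates the product. Auh (mm10 chr13:52835119-52929681) was at 125, 119 and 119 CPM in Bmal1WT, against 94.6, 81.1 and 72.5 CPM in Bmal1KO (log2 FC -0.55, SE 0.16, adjusted p = 0.414). Its groups were clearly apart, and it had the smallest p of all members. Mccc1 (mm10 chr3:35959312-36000678) was at 138, 144 and 146 CPM and at 134, 94.3 and 92.6 CPM (-0.42, SE 0.18, adjusted p = 0.507), so that Bmal1KO replicate 1 lay only just under the Bmal1WT libraries.

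Mccc2 (mm10 chr13:99948530-100015639) was at 114, 138 and 132 CPM in Bmal1WT, against 124, 77.1 and 62.3 CPM in Bmal1KO (log2 FC -0.54, SE 0.24, adjusted p = 0.517). Ivd (mm10 chr2:118861954-118882909) was at 104, 154 and 162 CPM and at 138, 74.6 and 66.8 CPM (-0.59, SE 0.28, adjusted p = 0.541). In both genes Bmal1KO replicate 1 was inside the Bmal1WT range and replicates 2 and 3 were under it.

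Because these 4 genes were low together, the bases before their transcription starts are shown, from RefSeq promoters on GRCm38.p6, which held an entry for 33 of the 35 members (none for Idh3a or Dbt). Each line runs 5′ to 3′ on the gene's strand over the longest stretch without annotated exon within 250 bases before the start, and capitals mark the motifs found there. The stretches are chr2:118861744-118861953 (plus strand) for Ivd, chr3:36000712-36000928 (minus) for Mccc1, chr13:100015640-100015889 (minus) for Mccc2 and chr13:52929682-52929927 (minus) for Auh.
Ivd: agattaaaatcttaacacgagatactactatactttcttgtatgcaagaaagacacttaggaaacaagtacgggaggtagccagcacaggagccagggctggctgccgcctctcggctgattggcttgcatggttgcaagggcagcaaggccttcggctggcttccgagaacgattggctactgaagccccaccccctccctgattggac
Mccc1: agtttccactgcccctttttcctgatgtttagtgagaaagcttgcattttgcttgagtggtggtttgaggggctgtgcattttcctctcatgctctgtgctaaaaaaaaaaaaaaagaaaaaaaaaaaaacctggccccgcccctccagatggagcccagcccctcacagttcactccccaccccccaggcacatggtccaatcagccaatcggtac
Mccc2: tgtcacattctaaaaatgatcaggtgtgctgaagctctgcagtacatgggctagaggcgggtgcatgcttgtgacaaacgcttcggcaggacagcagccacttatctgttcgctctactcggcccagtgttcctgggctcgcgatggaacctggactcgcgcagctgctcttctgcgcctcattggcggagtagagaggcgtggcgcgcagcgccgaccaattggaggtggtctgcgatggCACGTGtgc
Auh: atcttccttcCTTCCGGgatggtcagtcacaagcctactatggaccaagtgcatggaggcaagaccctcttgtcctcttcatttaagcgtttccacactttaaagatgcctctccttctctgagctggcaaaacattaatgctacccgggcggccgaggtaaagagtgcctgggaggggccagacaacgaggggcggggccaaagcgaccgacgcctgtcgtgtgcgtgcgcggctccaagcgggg
Motifs were searched on both strands of the window from 250 bases before to 50 after each start. CACGTG, the E-box bound by BMAL1 with CLOCK, was found in 3 of 33 members (9.09%: Mccc2, Ogdh and Pcx), against 8.09% of 27025 genes, and in Mccc2 it begins at position -9. CCGGAAG, the site of GABPA, was found in 4 (12.1%: Auh, Dlst, Idh3b and Idh3g), against 9.93%, and in Auh it is read on the other strand. TNAAGGTCA, the site of estrogen-related receptors, was found in 0, against 1.43%.

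In the valine and isoleucine branch 4 of 5 genes had a lower Bmal1KO mean (median log2 FC -0.26, and -0.54 without Bmal1KO replicate 1). None of the 5 had an unadjusted p under 0.05, against 9.31% of all genes. Acad8, isobutyryl-CoA dehydrogenase of the valine branch, was at 69.7, 66.1 and 63.5 CPM in Bmal1WT, against 50.2, 48.7 and 61.2 CPM in Bmal1KO (log2 FC -0.32, SE 0.17, adjusted p = 0.582). Its groups did not overlap. Hibch, which frees hydroxyisobutyrate from coenzyme A, was at 89.0, 98.7 and 109 CPM and at 111, 58.1 and 64.1 CPM (-0.35, SE 0.24, adjusted p = 0.663). Hibadh, the dehydrogenase of hydroxyisobutyrate, was at 133, 135 and 133 CPM and at 142, 94.3 and 98.0 CPM (-0.26, SE 0.18, adjusted p = 0.669). Both were highest of all in Bmal1KO replicate 1 and lowest in replicates 2 and 3. Without replicate 1 the log2 FC was -0.70 for Hibch and -0.48 for Hibadh.

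Aldh6a1, which turns methylmalonate semialdehyde into propionyl-CoA, showed that split too, with 139, 188 and 229 CPM in Bmal1WT and 281, 97.3 and 119 CPM in Bmal1KO (log2 FC -0.16, SE 0.37, adjusted p = 0.914). Acadsb, the dehydrogenase of the isoleucine branch, was at 45.9 ± 12.6 CPM (SD, n = 3) and 49.7 ± 31.4 CPM, with 86.0 CPM in Bmal1KO replicate 1. Without that library the log2 FC of Aldh6a1 was -0.78, and that of Acadsb went from 0.11 to -0.54. Propionyl-CoA carboxylase passes the carbon on towards succinyl-CoA. Its subunit Pccb was at 73.2, 92.3 and 60.6 CPM in Bmal1WT, against 78.9, 46.8 and 34.4 CPM in Bmal1KO (-0.50, SE 0.28, adjusted p = 0.608). Pcca was at 92.2, 107 and 118 CPM and at 117, 100 and 60.2 CPM (-0.20, SE 0.23, adjusted p = 0.811). Both had overlapping groups. Without Bmal1KO replicate 1 their log2 FCs were -0.89 and -0.40.

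**Figure D3:**
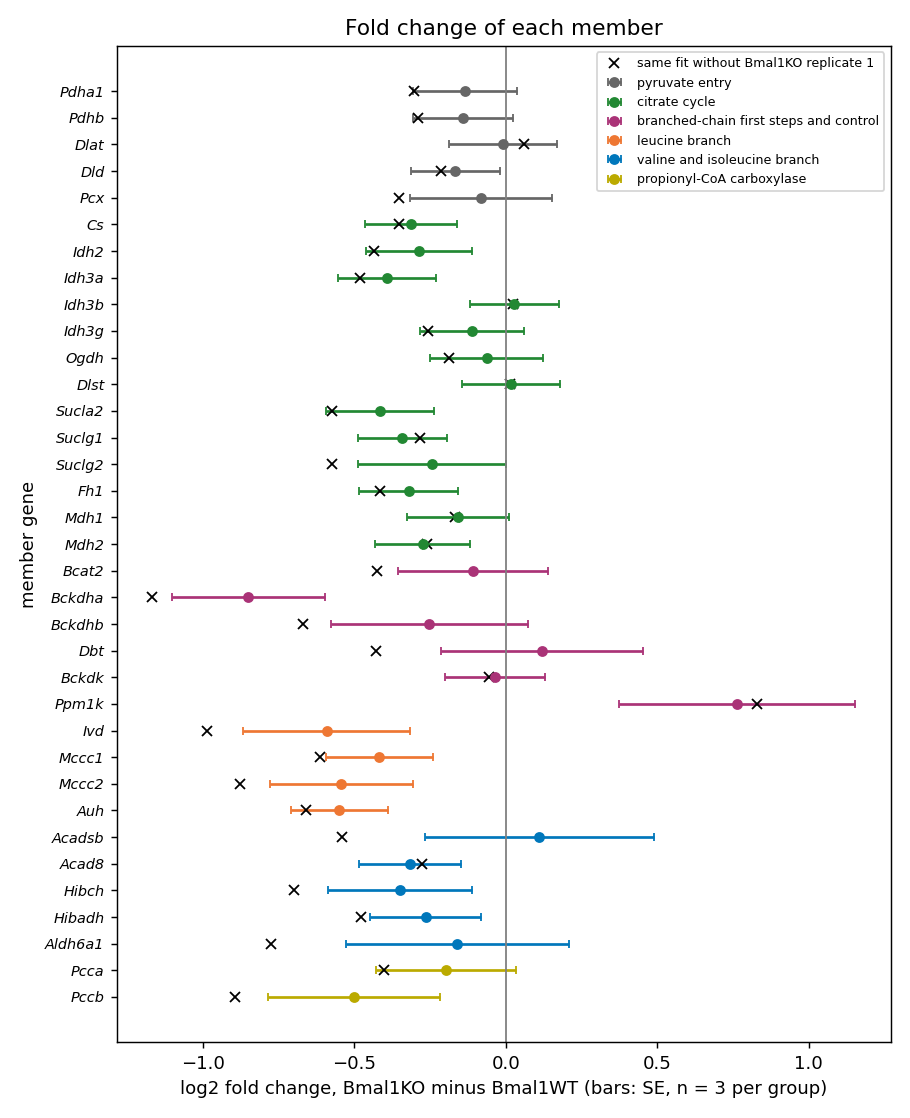
Log2 fold change of each of the 35 members, Bmal1KO minus Bmal1WT, with its SE (coloured by role, n = 3 per group), and the value without Bmal1KO replicate 1 (crosses). Bckdha at -0.85 and Ppm1k at 0.76 are the extremes, and most crosses lie further left.

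Set side by side, the branched-chain genes differed from the citrate cycle genes more in spread than in median. Their median log2 FC was 0.10 further below 0 (-0.26 against -0.16). The mean over the branched-chain genes, relative to Bmal1WT, was 0.18, -0.46 and -0.61 in Bmal1KO replicates 1 to 3, and over the citrate cycle and pyruvate genes it was -0.035, -0.24 and -0.31. The Bmal1WT libraries ran from -0.14 to 0.100 and from -0.041 to 0.055. The branched-chain mean minus the citrate cycle mean was 0.21, -0.22 and -0.30 in Bmal1KO replicates 1 to 3, on either side of the Bmal1WT values of -0.095 to 0.051. Among Bmal1KO libraries the median SD of a branched-chain gene was 0.50 log2 units, against 0.17 in Bmal1WT, and 16 of 17 had the larger SD in Bmal1KO. For citrate cycle and pyruvate genes these SDs were 0.21 and 0.10 (12 of 18), and over all genes 0.345 and 0.28, with 58.2% larger in Bmal1KO. No p is given for these list values, and the difference between the pathways was not tested.

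Bmal1KO replicate 1 exceeded both other Bmal1KO libraries in 27 of 35 members (13 of 18 citrate cycle and pyruvate genes, 14 of 17 branched-chain genes), against 38.03% of all genes. Bmal1KO replicates 2 and 3 both lay under every Bmal1WT library in 25 members (12 and 13), against 17.1% of all genes. Without Bmal1KO replicate 1 the median was -0.29 for the citrate cycle and pyruvate genes and -0.61 for the branched-chain genes, a difference of -0.33. That fit set Bmal1KO replicates 2 and 3 against the 3 Bmal1WT libraries. Since replicate 1 exceeded both in 14 of 17 branched-chain genes, leaving it out lowers the Bmal1KO mean of those genes by construction. In that fit 16 members were lower at an unadjusted p under 0.05, against 8.66% of all genes, and 3 passed edgeR's adjusted threshold, all lower and all branched-chain genes, against 0.772% of all genes: Bckdha (log2 FC -1.17, adjusted p = 0.0411), Mccc2 (-0.88, adjusted p = 0.0440) and Ivd (-0.99, adjusted p = 0.0496). With any of the other 5 libraries left out 2 to 4 members were lower at an unadjusted p under 0.05 and 0 passed. Of the 14440 to 14681 genes tested in those fits, 385 to 481 were lower at that unadjusted threshold. The difference between the medians then ran from -0.12 to -0.055, the latter without Bmal1KO replicate 2, and the citrate cycle median was -0.095 without Bmal1KO replicate 3. Without both libraries numbered 1, Ivd alone passed (-1.15, adjusted p = 0.0329, against 0.358% of genes lower).

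**Figure D4:**
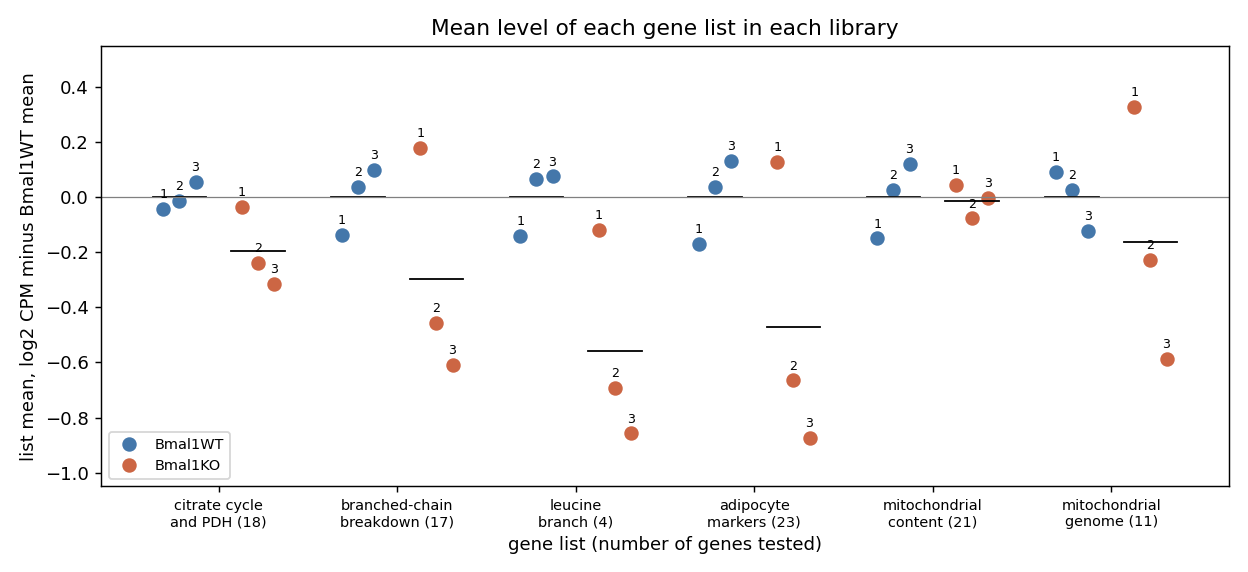
Mean of each gene list in each library, as log2 CPM minus the Bmal1WT mean, with points numbered by replicate and bars at the group means. Branched-chain genes and fat cell markers share a high Bmal1KO replicate 1 (0.18 and 0.13) and low replicates 2 and 3. The means of general mitochondrial content genes, regulators of few counts among them, lie between -0.15 and 0.12. Their summed CPM, not drawn here, was lower in each Bmal1KO library.

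Fat cell markers moved with these genes from library to library. The mean over the 23 markers, relative to Bmal1WT, was 0.13, -0.67 and -0.87 in Bmal1KO replicates 1 to 3 and -0.17 to 0.13 in Bmal1WT, and 22 of 23 were lower in Bmal1KO (median log2 FC -0.37). T cell markers summed to 38.8 to 113 CPM in Bmal1WT and to 148 to 311 CPM in Bmal1KO, and macrophage markers to 9182 to 13690 and to 9052 to 19202 CPM. Endothelial markers summed to 611 to 1236 CPM and to 462 to 646 CPM, with 15 of 15 lower, while 19 of 19 T cell markers tested and 14 of 16 macrophage markers were higher in Bmal1KO. Bmal1KO replicate 1 stood apart in other lists too. Endothelial means were -0.13, -0.90 and -0.85 in Bmal1KO replicates 1 to 3 (-0.47 to 0.60 in Bmal1WT). Macrophage means were -0.25, 0.58 and 0.61 (-0.28 to 0.19 in Bmal1WT). Mural markers summed to 455 to 465 CPM and to 326 to 369 CPM (7 of 7 tested lower). Mast cell markers (74.4 to 158 CPM and 266 to 417 CPM, 8 of 8 tested higher) and mesothelial markers (251 to 517 CPM and 541 to 599 CPM, 10 of 10 higher) lay above in each Bmal1KO library. B cell markers summed to 30.6 to 64.0 CPM in Bmal1WT and to 63.6, 38.4 and 346 CPM in Bmal1KO replicates 1 to 3. There replicate 3 stood apart (8 of 8 tested higher in Bmal1KO). Stromal progenitor markers summed to 4585 to 6943.5 CPM in Bmal1WT and to 4820 to 6672 CPM in Bmal1KO (6 higher, 3 lower). The part of cell makeup in the members' differences was not tested. Genes of general mitochondrial content, such as import proteins, prohibitins and regulators, had means of 0.044, -0.077 and -0.0020 in Bmal1KO replicates 1 to 3. Of these genes 13 of 21 were lower (median log2 FC -0.15). Regulators of few counts, such as Ppargc1a (1 to 51 counts, log2 FC 0.95), weigh as much in these means as abundant genes. The medians over the list were -0.15, -0.17 and -0.027. In 5 of the 21 every Bmal1KO library lay under every Bmal1WT library (7.85% of all genes), and in 1 above (7.83%). Summed, the 21 genes made up 3130 to 3192 CPM in Bmal1WT and 2788 to 2867 CPM in Bmal1KO, lower in each Bmal1KO library. Genes of the mitochondrial genome had means of 0.33, -0.23 and -0.59, and Bmal1KO replicate 1 exceeded both other Bmal1KO libraries in all 11 of them.

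Other genes of the same pathways were also mostly lower in Bmal1KO without passing the test. Of 29 further citrate cycle and pyruvate genes tested, 20 were lower and 9 higher in Bmal1KO (median log2 FC -0.17), and 4 were lower at an unadjusted p under 0.05 (4.26% of all genes). Slc25a10, the dicarboxylate carrier of the mitochondrion, was at 424, 437 and 463 CPM in Bmal1WT, against 251, 361 and 278 CPM in Bmal1KO (log2 FC -0.57, SE 0.17, adjusted p = 0.414). Pdhx, which holds the lipoamide dehydrogenase in the pyruvate dehydrogenase complex, was at 65.7 ± 7.77 CPM (SD, n = 3) and 46.4 ± 8.68 CPM. Lias, which makes the lipoic acid that these complexes share, was at 95.0 ± 24.8 and 66.3 ± 9.33 CPM. Idh1, the isocitrate dehydrogenase of the cytosol, was at 732 ± 69.4 and 562 ± 21.2 CPM, and Aco1, the aconitase of the cytosol, at 218 ± 21.6 and 171 ± 25.7 CPM.

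Of 26 further branched-chain genes tested, 21 were lower and 5 higher (median log2 FC -0.10), and 0 had an unadjusted p under 0.05 (9.31% of all genes). Mmab, which adenosylates the cobalamin used after propionyl-CoA carboxylase, was at 50.9 ± 6.61 CPM (SD, n = 3) and 38.5 ± 4.31 CPM. Slc3a2, the heavy chain of the large neutral amino acid transporters, was at 366 ± 37.9 and 284 ± 42.3 CPM. Slc43a2, a facilitative transporter of branched-chain amino acids, was at 26.2 ± 4.56 and 34.5 ± 2.41 CPM. It was the 1 gene of these lists with every Bmal1KO library above every Bmal1WT library, a pattern met by 7.83% of all genes. The thiolase Acat1 and the hydratase Echs1 had log2 FCs of -0.32 (SE 0.18) and -0.36 (SE 0.19).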

How the data were processed

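RNA was measured by sequencing in 6 libraries of whole visceral fat, 3 per group, grouped and numbered by their titles. Raw counts, 1 per symbol and library, were deposited by the authors. The submitters' processing notes name STAR 2.7.3a, featureCounts and mm10. Which annotation and strand mode were used, and how multi-mapping reads were handled, is not given in the sources used here. Per the labels' protocols, 2 ng of RNA was primed with oligo(dT), amplified and cut by a transposase, which marks neither strand nor molecule, so amplified copies were counted as reads. Totals ran from 6514620 to 9529198 counts per library, and the members had 34 to 6795 counts each per library.

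Counts of Bmal1KO and Bmal1WT were compared with edgeR 4.0.16 in R 4.3.3 (filterByExpr, TMM scaling, robust quasi-likelihood F-test, no covariate, Benjamini-Hochberg adjustment over the 13859 genes kept, threshold 0.05). CPM is relative to TMM-scaled library sizes, with ± for the SD of 3 libraries. Standard errors are the size of the unshrunken log2 coefficient over the root of F. List means use log2 CPM with a prior count of 2. Coordinates, exon lengths and exon overlaps came from GENCODE M21 (mm10). The test was checked on simulated data.

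The members, lists and tests were chosen with earlier results of these data known, so no list was given a p-value. Up to 4 members of smallest p in each of 6 role groups are described in full. Up to 5 genes of smallest p in each of 2 lists of other pathway genes are named. Except for Slc25a10 these are given by mean and SD or by log2 FC and SE. Tried as alternatives were scaling by library size alone or by the size factors of DESeq2, the tools DESeq2 1.42.0 and limma 3.58.1 (voom, quality weights), all genes unfiltered, a block for the replicate number, each library omitted, and both libraries numbered 1 omitted.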

Additional observations from a re-analysis of the deposited data

How the results depend on the processing

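No gene passed edgeR's adjusted test over all genes as reported, whereas DESeq2 called 60 genes, edgeR without a filter 186, edgeR without both libraries numbered 1 61, and edgeR with 1 library left out 0 to 156. The causes were not tested. Without both libraries numbered 1 the citrate cycle median was -0.27, the branched-chain median -0.63 and their difference -0.36. With 1 library left out these ran from -0.29 to -0.095, from -0.61 to -0.18 and from -0.33 to -0.055. On library size alone, which moved the median of all genes from 0.018 to 0.11, the citrate cycle median was -0.067 and the branched-chain median -0.17. By limma voom the branched-chain median was -0.42 and the difference -0.23. Under the other scaling, tool and filter alternatives the 3 values moved by less than 1.5 times. The sign turned under at least 1 alternative in 12 of the 35 members: Dlat, Pcx, Idh3b, Ogdh, Dlst, Bcat2, Bckdhb, Dbt, Bckdk, Acadsb, Aldh6a1 and Pcca. With all libraries kept it turned in 7 of them, and Pcx was 0.0105 on library size alone. With 1 library left out Dbt ran from -0.43 to 0.40, Acadsb from -0.54 to 0.35, Pcx from -0.35 to 0.088, Bcat2 from -0.43 to 0.13, Bckdhb from -0.67 to 0.019, Aldh6a1 from -0.78 to 0.10 and Pcca from -0.40 to 0.029. With the replicate number as a block 0 genes passed, and the medians were -0.17 and -0.31. Same-numbered libraries correlated at -0.070, 0.094 and -0.031 in their deviations from the group means, so the numbers were not taken to pair them. Ppm1k had 34 to 92 counts per library, which limits the precision of its value.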
